A study of Mus musculus with 7 samples.

Results

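The use of 7 genes that mark regulatory T cells was followed through single-cell RNA counts of mouse liver tumours: Foxp3, Ikzf2, Ikzf4, Lrrc32, Izumo1r, Tnfrsf1b and Itgb8. They were taken by symbol, and all 7 were among the 55357 features counted. Hepatocellular carcinoma had been raised by hydrodynamic tail vein injection of plasmids for Nras and C-myc, and liver tissue was taken 2 weeks later. The 3 control samples had these plasmids only, and the 4 treated samples had in addition a plasmid for IL-2/CD25, which the study's title calls a fusion protein. Every animal of both groups carried the Nras and C-myc plasmids, so no tumour-free liver is among the samples, and the labels state no strain, age or sex. The labels do not say that each sample came from a separate animal, so the p-values measure the spread between these samples, which may be technical.

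Regulatory T cells hold other lymphocytes in check, and the transcription factor Foxp3, encoded on the X chromosome, fixes their identity. Ikzf2 (Helios) and Ikzf4 (Eos) are zinc finger factors of the Ikaros family that work beside Foxp3. Lrrc32 (GARP) is a surface protein that docks latent TGF-beta, and Itgb8, the beta subunit of an integrin that pairs with the alpha subunit Itgav, releases TGF-beta from that latent form. Izumo1r (folate receptor 4, also called Juno) and Tnfrsf1b (TNF receptor 2) are surface receptors; the latter carries TNF signals that favour regulatory T cell growth. Regulatory T cells also carry much Il2ra, the CD25 chain of the IL-2 receptor, whose signal runs through STAT5 and helps to keep Foxp3 on.

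The promoters are shown first because the members are described below as moving with Foxp3 and because STAT5 sites are written in a known pattern. RefSeq's promoter table (build GRCm38.p6, 250 bases before to 50 after each gene's start) held 4 of the 7 members in 5 windows, of which 4 are printed on the gene's own strand. Capitals mark the letters TTCNNNGAA, the core of a STAT5 site, which reads the same on both strands. They lie 139 bases before the start in the Foxp3 window shown and 181 bases before the start of Tnfrsf1b.
Foxp3, chrX:7580233-7580532, plus strand: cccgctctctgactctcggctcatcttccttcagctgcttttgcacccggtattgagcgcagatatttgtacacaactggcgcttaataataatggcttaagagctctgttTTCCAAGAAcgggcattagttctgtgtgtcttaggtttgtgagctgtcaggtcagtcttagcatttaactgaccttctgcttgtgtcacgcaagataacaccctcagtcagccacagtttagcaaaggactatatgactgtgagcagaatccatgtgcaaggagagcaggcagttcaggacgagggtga
Tnfrsf1b, chr4:145246821-145247120, minus strand: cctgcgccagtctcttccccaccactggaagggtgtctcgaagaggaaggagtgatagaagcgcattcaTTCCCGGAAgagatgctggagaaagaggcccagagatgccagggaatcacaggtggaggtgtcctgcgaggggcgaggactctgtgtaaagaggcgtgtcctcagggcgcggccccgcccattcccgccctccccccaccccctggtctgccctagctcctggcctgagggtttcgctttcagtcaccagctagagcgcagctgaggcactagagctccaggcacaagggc
Izumo1r, chr9:14903718-14904017, minus strand: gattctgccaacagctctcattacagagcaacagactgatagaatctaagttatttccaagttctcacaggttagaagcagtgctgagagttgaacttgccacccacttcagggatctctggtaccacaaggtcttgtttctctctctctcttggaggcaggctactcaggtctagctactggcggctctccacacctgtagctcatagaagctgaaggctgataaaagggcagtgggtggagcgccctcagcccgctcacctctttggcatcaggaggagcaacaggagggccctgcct
Itgb8, chr12:119238227-119238526, minus strand: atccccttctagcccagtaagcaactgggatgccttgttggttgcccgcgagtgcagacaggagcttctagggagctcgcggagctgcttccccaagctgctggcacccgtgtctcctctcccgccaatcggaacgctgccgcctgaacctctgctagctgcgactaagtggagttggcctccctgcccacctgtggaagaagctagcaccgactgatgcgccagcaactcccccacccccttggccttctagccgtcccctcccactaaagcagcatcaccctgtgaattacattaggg
The second Foxp3 window, at chrX:7579426-7579725, held no match. TTCNNNGAA stood in 8.3% of all 32851 promoter windows of the same length, and the forkhead letters TGTTTAC, searched on both strands, in 3.65% of them and in none of the 5 windows. A match is a run of letters and not a binding site, and the absence of one says only that these letters are not in the window.

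Cells were sorted by marker UMIs (unique molecular identifiers, each 1 counted RNA molecule) rather than by clusters. A T cell held at least 2 UMIs of Cd3d, Cd3e and Cd3g. A Foxp3+ T cell held at least 1 Foxp3 UMI and none of Cd8a or Cd8b1, and a Foxp3-zero CD4 T cell held Cd4 but no Foxp3, CD8 or Zbtb16 UMI. The other types were NKT-like (Zbtb16), gamma delta-like (Trdc), innate-like T cells with Klra6 but no Cd4 or CD8 UMI, activated, memory-like and naive-like CD8 T cells, other T cells, NK cells, ILC1-like cells (Itga1 without Itga2) and plasmacytoid dendritic-like cells (Siglech, Ccr9, Klk1 and Cox6a2). A level is given as CPM, the gene's UMIs per 1000000 UMIs summed over the cells of a type in a sample, and a mean is given with its SD over samples. Because 1 Foxp3 UMI defines the Foxp3+ gate, the Foxp3 level there and the zeros of the Foxp3-zero and Klra6 gates follow from the rule and were not tested. In the NKT-like gate only a cell with a Cd8a UMI could hold Foxp3, and none did.

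The libraries held 7263 to 10637 barcodes each, and 6823 to 9551 cells per sample were kept. Median UMIs per kept cell were 5610 to 8142 in control samples and 3093 to 4371 in the treated samples. The gates found 159 to 318 T cells in each control and 2303 to 3437 in each treated sample. Foxp3+ cells numbered 6, 15 and 7 in controls 1 to 3 and 167, 117, 151 and 265 in treated samples 1 to 4, that is 28 and 700 of 728 in all. Their median depth was 4264.5 UMIs in control samples and 4787.5 in the treated samples. Of cells with Cd3 UMIs, 15.4% to 44.9% per control and 0.62% to 1.29% per treated sample were left out because they also held UMIs of other lineages. Pairs of libraries shared 14 to 37 cell barcodes over the 21 pairs. With so few control cells the control levels below rest on few UMIs, and 3 UMIs correspond to 142, 35.6 and 135 CPM in the Foxp3+ cells of controls 1 to 3 against 2.08 to 4.81 CPM in the treated samples.

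The share of T cells with Foxp3 did not differ between the groups beyond the spread between samples. Foxp3+ cells made up 1.89%, 9.43% and 3.63% of T cells in control samples and 6.95%, 5.08%, 5.43% and 7.71% in the treated samples. The control values lay on both sides of the treated ones. The group means were 4.98% ± 3.95 (SD, n = 3) and 6.29% ± 1.25 (SD, n = 4), and an exact two-sided permutation test over all 35 divisions of the samples, whose smallest possible p is 0.0286, gave p = 0.571. CD4 T cells were here the Foxp3-zero CD4 T cells together with the Foxp3+ cells that held a Cd4 UMI. Foxp3-zero cells with a Zbtb16 UMI were thus left out, but Foxp3+ cells with one were not. Of these CD4 T cells, 6.38%, 34.4% and 16% held Foxp3 in control samples and 54.8%, 26.7%, 25.1% and 58% in the treated samples. Control 2 lay above treated 2 and 3, so these groups overlapped too. The means were 18.9% ± 14.2 and 41.2% ± 17.7, with an exact permutation p of 0.171 (0.343 after Benjamini-Hochberg adjustment over both shares). The exact 95% binomial intervals of single controls were wide, for example 18.6% to 53.2% in control 2, and cover counting error only. Foxp3 was then read after thinning each cell to 1500 UMIs, which equalises the depth for Foxp3 only. Cells with fewer UMIs were left out, and the markers of the T cell and CD4 gates stayed at full depth. The share of T cells became 2.3% ± 0.586 against 3.96% ± 0.727, without overlap, with an exact permutation p of 0.0571 (0.0857 adjusted). The thinned share of CD4 T cells did not overlap either, at 4.35%, 12.9% and 12% against 35.5%, 16.8%, 16.9% and 39.4%, with means of 9.75% ± 4.7 and 27.2% ± 12 and an exact permutation p of 0.0857. Without control 1 the difference in the share of T cells turned to -0.239 percentage points.

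The 7 genes were used outside Foxp3+ cells to very different extents. Ikzf4, Lrrc32 and Itgb8 were concentrated in Foxp3+ cells among the gated lymphocytes of the treated samples, Ikzf2 and Izumo1r formed a graded series over T cell types, and Tnfrsf1b was found in every lymphocyte type. The levels in each type that follow are descriptions, since the type of a cell and the genes come from the same counts.

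**Figure D1:**
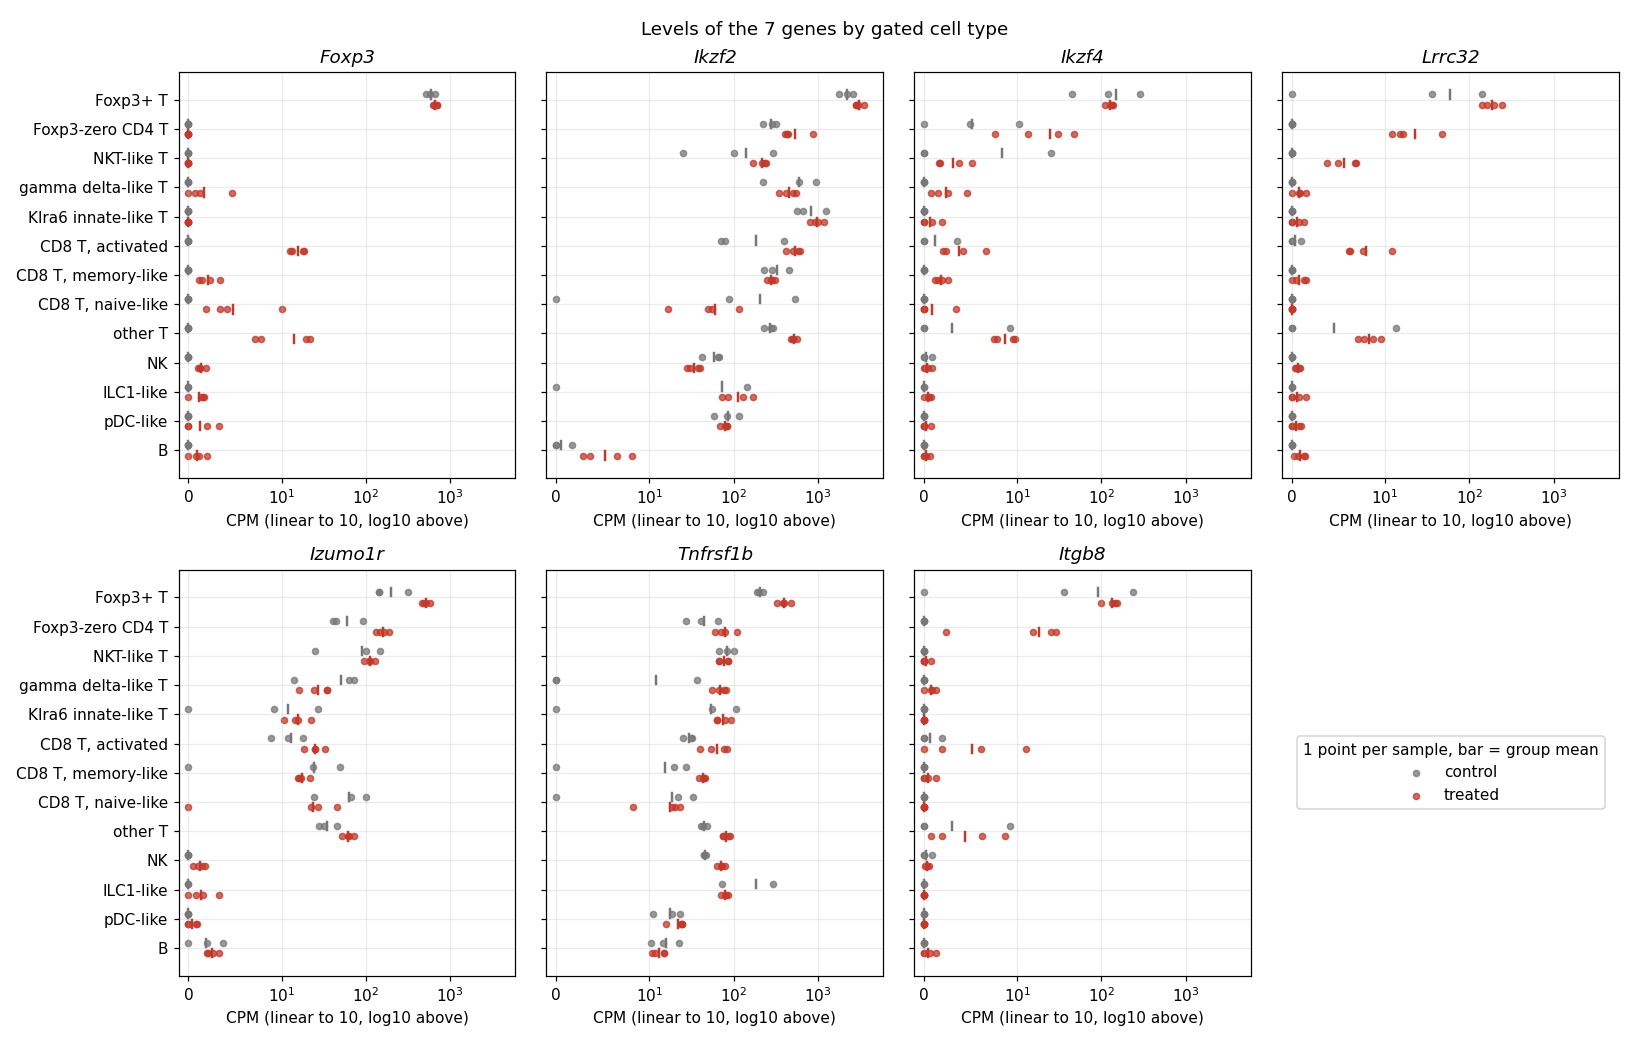
Level of each of the 7 genes in 12 gated cell types and in B cells. Each point is 1 sample in CPM (axis linear to 10 and log10 above), grey for the 3 controls and red for the 4 treated samples, and the short bars are group means. The types stand in a fixed order, not by level. Treated means of Ikzf4, Lrrc32 and Itgb8 are below 10 CPM outside Foxp3+ and Foxp3-zero CD4 T cells. Treated means of Ikzf2 range from 3077 CPM in Foxp3+ cells to 33.91 CPM in NK cells among the 12 gated types.

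Among the transcription factors, Foxp3 itself stood at 663.3, 522.4 and 586.2 CPM in the Foxp3+ cells of the controls and at 636.7, 695.4, 708.3 and 642.7 CPM in those of the treated samples, a level set in part by the gate. Ikzf2 in Foxp3+ cells measured 2653, 2220 and 1804 CPM in control samples and 2863, 3040, 3562 and 2842 CPM in the treated samples. All treated values lay above all control values. In the treated samples, Ikzf2 came next in the Klra6 innate-like T cells with 978.5 ± 155.4 CPM (SD, n = 4), and no sample there reached the lowest Foxp3+ value. Foxp3-zero CD4 T cells (541.5 ± 230.7 CPM), activated CD8 T cells (531.3 ± 86.42), other T cells (515.8 ± 39.04) and gamma delta-like T cells (456 ± 93.83) followed, and from the Klra6 cells on each range overlapped the next. Memory-like CD8 T cells (280.1 ± 24.76 CPM) lay below these, and NKT-like T cells (216.7 ± 32.81 CPM) lay lower again, neither overlapping its upper neighbour. ILC1-like cells (114.1 ± 44.52 CPM), plasmacytoid dendritic-like cells (79.33 ± 6.908), naive-like CD8 T cells (59.56 ± 41.77) and NK cells (33.91 ± 5.92) closed the order, each overlapping the type before it. B cells, which serve as the background of free RNA, held 5.288 ± 2.429 CPM. In the controls, the Foxp3+ and the Klra6 cells likewise held the first and second places for Ikzf2, the latter with 827.9 ± 368.4 CPM in 27 cells.

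Cells with many Ikzf2 UMIs were counted because single UMIs can come from free RNA. At least 5 Ikzf2 UMIs were found in 646 of 700 Foxp3+ cells of the treated samples (92.3%, exact 95% binomial interval 90.1% to 94.2%) and in 40.5% of 830 Klra6 innate-like T cells. The share was 21.6% in activated CD8 T cells, 12.4% in Foxp3-zero CD4 T cells and 0.259% of 9261 NK cells. None of 3448 B cells reached 5 Ikzf2 UMIs, which allows a share of up to 0.107%. Median depths were 4787.5 UMIs in Foxp3+ cells, 4206 in Klra6 cells, 3603 in NK cells and 2718 in B cells. High Ikzf2 content was therefore the rule in Foxp3+ cells and frequent in the Klra6 cells, although the latter held no Foxp3 UMI by definition.

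Ikzf2 also followed Klra6 inside the CD8 T cells. Klra6 encodes a receptor of the Ly49 family, best known from NK cells. CD8 T cells with a Klra6 UMI held 923.4, 1019, 1025 and 1025 CPM of Ikzf2 in treated samples 1 to 4, and those without one held 154.9, 187.1, 190.8 and 224.3 CPM. The lowest value with Klra6 was thus above the highest value without it. The 9 control cells of this kind pointed the same way in each sample, with 849.4, 1558 and 1164 CPM against 65.98, 345.4 and 58.27 CPM, from 4, 3 and 2 cells. Median depth was nearly equal in the treated classes (4526 and 4645 UMIs). Lrrc32 and Itgb8 were at 0 in the 426 treated CD8 T cells with Klra6, below the 1.49 CPM that 3 UMIs would give. The Ikzf2 of these cells thus came with no detectable Lrrc32 or Itgb8. Both genes were low in CD8 T cells of the treated samples at large. Lrrc32 averaged 8.009, 0.8232 and 0 CPM in activated, memory-like and naive-like cells, and Itgb8 5.152, 0.4475 and 0 CPM. Whether CD8 T cells with Klra6 differ from the others in these genes was not tested.

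Ikzf4 in Foxp3+ cells measured 284.3, 118.7 and 45.1 CPM in the controls, from 6, 10 and 1 UMIs, and 132, 126.6, 136.9 and 109.5 CPM in the treated samples. No treated value left the control range. Foxp3-zero CD4 T cells of the treated samples held 24.62 ± 17.77 CPM and other T cells 8.652 ± 1.155 CPM. The remaining types averaged 3.829 CPM or less.

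Both genes of TGF-beta release were high in the Foxp3+ cells of every treated sample. Lrrc32 in Foxp3+ cells measured 198.4, 141, 246.7 and 164.3 CPM there, against 142.1, 35.62 and 0 CPM in the controls, which came from 3, 3 and 0 UMIs. Control 1 lay just above the lowest treated sample. Itgb8 in Foxp3+ cells measured 143.5, 99.34, 151.2 and 133.1 CPM in the treated samples and 236.9, 35.62 and 0 CPM in the controls. The control 1 value was the highest of all but came from 5 UMIs in a single cell. Foxp3-zero CD4 T cells of the treated samples held 22.69 ± 16.25 CPM of Lrrc32 and 18.02 ± 11.9 CPM of Itgb8, and every control was at 0 for both genes. Itgb8 was at 0 in the ILC1-like, Klra6, plasmacytoid dendritic-like and naive-like CD8 cells of the treated samples.

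Of the surface receptors, Izumo1r in Foxp3+ cells measured 142.1, 142.5 and 315.7 CPM in control samples and 525.9, 459.9, 496.6 and 583.8 CPM in the treated samples, with no overlap. Its order in the treated samples was clear in the upper places, where no 2 neighbours overlapped: Foxp3+ cells, Foxp3-zero CD4 T cells (159.2 ± 24.2 CPM), NKT-like T cells (111.6 ± 14.53) and other T cells (62.03 ± 8.262). Gamma delta-like, CD8 and Klra6 T cells averaged 15.73 to 27.32 CPM. NK cells (1.25 CPM) and plasmacytoid dendritic-like cells (0.4622 CPM) were no higher than B cells (2.543 CPM), a level that free RNA alone could give.

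Tnfrsf1b in Foxp3+ cells measured 189.5, 201.8 and 225.5 CPM in control samples and 388.2, 325.3, 482.3 and 393.1 CPM in the treated samples, again with no overlap. In the treated samples, 9 further types, T and NK alike, averaged 43.13 to 81.25 CPM, and neighbours in that order overlapped. Plasmacytoid dendritic-like cells (22.13 ± 4.166 CPM) and naive-like CD8 T cells (17.51 ± 6.414 CPM) were the lowest, near the B cells (13.09 ± 2.22 CPM). Myeloid cells carried the gene as well. Neutrophils held 39.03 ± 5.794 CPM in control samples and 160.1 ± 11.81 CPM in the treated samples, and monocytes and macrophages held 36.78 ± 7.82 and 162.3 ± 32.9 CPM. These myeloid differences were not tested.

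Counted by molecules instead of levels, Foxp3+ cells supplied 87.4% of the Foxp3 UMIs, 78.8% of the Itgb8, 72.3% of the Lrrc32 and 63.8% of the Ikzf4 UMIs found in gated T, NK and dendritic-like cells of the treated samples. They supplied 46.4% of the Izumo1r, 34.2% of the Ikzf2 and 19.9% of the Tnfrsf1b UMIs. NK cells supplied more Tnfrsf1b (33.2%) than Foxp3+ cells did, and other T cells supplied 21.9% of the Ikzf2 UMIs. On the same basis, Foxp3+ cells of the controls supplied 68% of 25 Ikzf4 UMIs, 60% of 10 Lrrc32 UMIs, 57.1% of 14 Itgb8 UMIs, 21% of the Ikzf2, 17.9% of the Izumo1r and 10.2% of the Tnfrsf1b UMIs. Over all kept cells of the controls, most of which were of other lineages, the shares were much smaller. There, Foxp3+ cells held 3.33% of 511 Ikzf4 UMIs, 2.64% of 227 Lrrc32 UMIs and 0.397% of the Tnfrsf1b UMIs of all kept cells, while monocytes and macrophages held 36.5% of the latter.

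**Figure D2:**
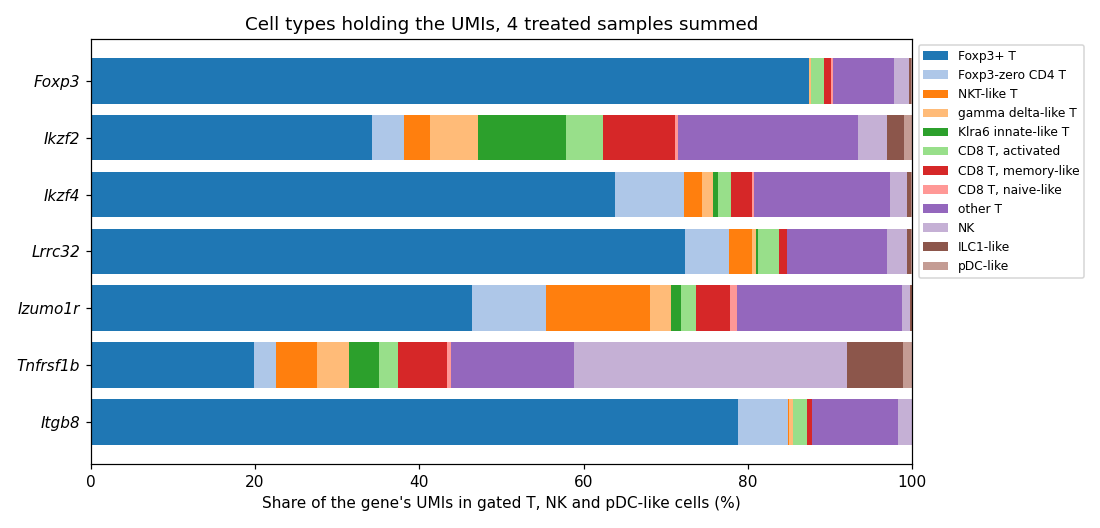
Share of each gene's UMIs held by each cell type, in percent of the UMIs in gated T, NK and plasmacytoid dendritic-like cells, with the 4 treated samples summed. Foxp3+ T cells (dark blue) hold most of Foxp3 (87.4%), Itgb8 (78.8%), Lrrc32 (72.3%) and Ikzf4 (63.8%) but only 34.2% of Ikzf2 and 19.9% of Tnfrsf1b.

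Within the same samples, Foxp3+ T cells were set against Foxp3-zero CD4 T cells, to see which genes go with Foxp3. All 6 other members were higher in Foxp3+ cells. The test was edgeR's quasi-likelihood test with the sample as a block, in the 5 samples with at least 10 cells of both kinds (control 2 and the 4 treated samples). It called 24% of 8590 genes, 12.2% higher and 11.8% lower, at an adjusted p under 0.05. Beside that background, 6 of 6 members were called higher. Both the genes of the set and the lists below are known for regulatory T cells, and a gate on Foxp3 divides CD4 T cells along that same line.

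On the log2 scale, Lrrc32 was higher by 3.07 ± 0.25 (SE; edgeR adjusted p = 8.69e-10) and its partner in TGF-beta release, Itgb8, by 2.96 ± 0.28 (edgeR adjusted p = 1.12e-08). Ikzf2 was higher by 2.52 ± 0.15 (edgeR adjusted p = 3.43e-12) and Ikzf4 by 2.32 ± 0.25 (edgeR adjusted p = 9.41e-08). Tnfrsf1b was higher by 2.25 ± 0.16 (edgeR adjusted p = 7.36e-11) and Izumo1r by 1.59 ± 0.13 (edgeR adjusted p = 1.28e-09). In the raw levels, each of the 4 treated samples had more of each of the 6 genes in its Foxp3+ cells. The smallest ratios per treated sample were 3.2 for Ikzf2, 2.33 for Ikzf4, 3.5 for Lrrc32, 3.07 for Izumo1r, 3.59 for Tnfrsf1b and 4.58 for Itgb8. In control 2 the ratios were 6.89 for Ikzf2, 11.4 for Ikzf4 and 4.86 for Tnfrsf1b, but only 1.52 for Izumo1r. Lrrc32 and Itgb8 had no UMI in its Foxp3-zero cells and gave no ratio. In each of the 15 alternative settings tried for each gene, DESeq2 and every left-out sample among them, the call held. In samples with at least 5 cells of both kinds, a minimum chosen after the data were seen, the background was 20.1% (9.35% higher) and the 6 members were again called higher.

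The lists of activation, tissue and central T cell genes divided along the same line. Of 21 tested genes of regulatory T cell activation and effect, 21 were higher in Foxp3+ cells and 0 lower, with a median log2 difference of 2.08 against -0.03 over all genes tested. They included the cytokine Il10 (3.28), the costimulatory receptors Tnfrsf9 (2.96) and Tnfrsf4 (2.7), the inhibitory receptor Ctla4 (2.69) and Il2ra (2.66). Of 11 tissue regulatory T cell genes, 8 were higher, led by Klrg1 (3.01), the growth factor Areg (2.86) and the IL-33 receptor Il1rl1 (2.18), and the chemokine receptor Cxcr6 was lower (-1.61). Of 11 genes of central, recirculating T cells, 10 were lower and 0 higher, with Tcf7 (-4.53), Ccr7 (-4.26) and Satb1 (-3.39) at the front.

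The relatives and partners of the members were less uniform. Itgav, the alpha subunit that Itgb8 needs, was higher by 2.22 ± 0.16 on the log2 scale (edgeR adjusted p = 7.01e-11), and of 10 tested genes of TGF-beta latency and response 4 were higher and 3 lower, among the latter the receptor Tgfbr2 (-1.01) and the integrin subunit Itgb1 (-1.05). In the Ikaros family, Ikzf1 was lower, at -1.34 ± 0.12 on the log2 scale (edgeR adjusted p = 5.81e-09), Ikzf3 was slightly higher (0.52) and Ikzf5 was not called. Around Tnfrsf1b, the sister receptor Tnfrsf1a was lower (-1.34) while 6 of 11 genes, such as the NF-kB inhibitor Nfkbia (1.01), Nfkb2 (0.84) and the adaptor Traf1 (0.77), were higher. The IL-2 and STAT5 response list had 7 of 12 genes higher, among them Cish (1.69), Pim1 (1.23) and Socs2 (1.21), and Dusp6 lower (-1.90). Among 12 partners of Foxp3, 0 were higher and 2, Runx1 (-0.51) and Runx3 (-0.48), were lower.

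Foxp3+ cells were not uniform in these genes. The mean number of the other 6 members with at least 1 UMI per Foxp3+ cell was 3.82, 3.52, 3.41 and 3.54 in treated samples 1 to 4, against 1.01, 0.887, 0.714 and 1.35 in Foxp3-zero CD4 T cells and 0.0543 to 0.0711 in B cells. After thinning to 1500 UMIs, the Foxp3+ values were 2.46, 2.2, 2.51 and 2.31 and the Foxp3-zero values 0.512, 0.46, 0.427 and 0.822. All 6 were seen together in 13, 10, 7 and 20 Foxp3+ cells and in 3 Foxp3-zero cells, all of treated sample 4. In the controls, the mean number was 3, 2.53 and 2 per Foxp3+ cell.

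A small class of Foxp3+ cells lacked Ikzf2. It held 27 of the 700 treated cells (3.86%), and its levels of Lrrc32, Itgb8, Izumo1r and Tnfrsf1b, summed over the 4 samples, were low. Lrrc32 stood at 17.36 CPM (exact 95% Poisson interval 2.102 to 62.7), against 200.3 CPM (182.5 to 219.4) in the 379 cells with 15 or more Ikzf2 UMIs. Itgb8 stood at 8.678 CPM (0.2197 to 48.35) against 148.8 CPM (133.5 to 165.4). Izumo1r and Tnfrsf1b stood at 147.5 and 104.1 CPM against 514.3 and 426.5 CPM. Il2ra (286.4 against 1131 CPM) and Ctla4 (442.6 against 1608 CPM) were lower too, and no Il10 UMI was found. Foxp3 itself was less different, with 459.9 CPM (344.5 to 601.6) against 657.1 CPM (624.5 to 691), and median depth was 3971 against 5367 UMIs. The class with 5 to 14 Ikzf2 UMIs, of 267 cells, was close to the highest class in most genes, for example 621.4 CPM of Izumo1r and 122.8 CPM of Itgb8. These classes share libraries, the intervals cover counting error only, and no test was run between them.

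**Figure D3:**
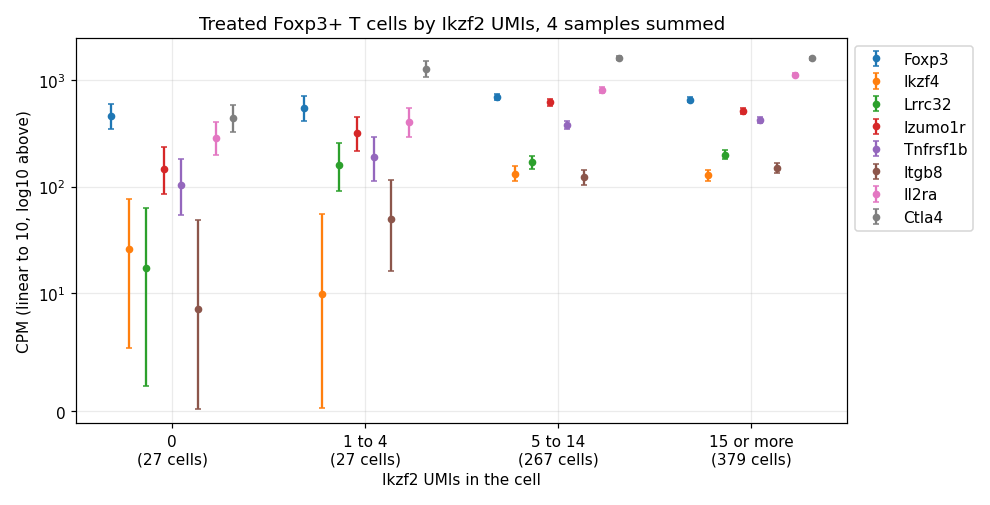
Levels in Foxp3+ T cells of the treated samples, divided by the number of Ikzf2 UMIs in the cell, with the 4 samples summed. Points are CPM (axis linear to 10 and log10 above) and bars are exact 95% Poisson intervals, which cover counting error only; the 27 cells without Ikzf2 are the lowest in Il2ra, Ctla4, Izumo1r, Tnfrsf1b, Lrrc32 and Itgb8, and the classes with 5 to 14 and with 15 or more UMIs lie close together.

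The number of Foxp3 UMIs and the presence of a Cd4 UMI mattered less. From the 171 treated cells with 1 Foxp3 UMI to the 282 with 4 or more, Ikzf2 went from 2724 to 3046 CPM, Izumo1r from 468.5 to 552.5 CPM and Lrrc32 from 158.8 to 187 CPM. The 281 Foxp3+ cells without a Cd4 UMI and the 419 with one held 2981 and 3013 CPM of Ikzf2, 179.6 and 186 CPM of Lrrc32 and 130.3 and 135.1 CPM of Itgb8. Foxp3+ cells with no visible Cd4 were thus like those with Cd4 in all these levels.

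Some T cells outside the Foxp3+ gate held a Foxp3 UMI. They were 89 treated cells (0.87% of T cells outside the gate), which by the gates' rules carried a CD8 UMI or counted as gamma delta-like, and 0 control cells. Their levels were near those of Foxp3+ cells: 2424 CPM of Ikzf2 against 415.8 CPM in the T cells without Foxp3, 135.6 against 3.628 CPM of Lrrc32, 103.9 against 1.479 CPM of Itgb8 and 392.8 against 46.58 CPM of Izumo1r. A Cd4 UMI was present in 51.7% of them, against 8.9% of the T cells without Foxp3, and their median depth was 5367 against 4105 UMIs. The part of droplets with 2 cells in this class was not tested.

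Foxp3-zero CD4 T cells of the treated samples divided sharply by Il2ra and Ctla4, genes that regulatory and activated T cells share. The 207 cells with a UMI of either gene and the 428 without differed in all 6 members. Ikzf2 in the cells with Il2ra or Ctla4 measured 967, 1137, 1027 and 1619 CPM in treated samples 1 to 4, and 92.07, 82.48, 126.4 and 214.3 CPM in those without. No values of the 2 classes overlapped. Summed over the samples, Lrrc32 was 52.76 against 1.871 CPM, Ikzf4 60.45 against 3.741 CPM, Itgb8 41.77 against 0 CPM, Izumo1r 253.9 against 96.65 CPM and Tnfrsf1b 152.8 against 34.29 CPM. As a ratio between the classes, Izumo1r differed the least of the 6. Median depth was 4183 against 3579.5 UMIs. A cell that transcribes Foxp3 can have no Foxp3 UMI: thinning to 1500 UMIs left a Foxp3 UMI in 60.5% to 64.4% of the treated Foxp3+ cells. That depth is lower than the depth here, and those cells were chosen for a Foxp3 UMI, so the loss among the 207 cells cannot be read from it. How many of the 207 cells transcribe Foxp3 was not tested. In the controls, the 35 cells with Il2ra or Ctla4 held 450.9, 337.3 and 508.9 CPM of Ikzf2, below every treated value of that class, from 38, 14 and 15 UMIs.

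**Figure D4:**
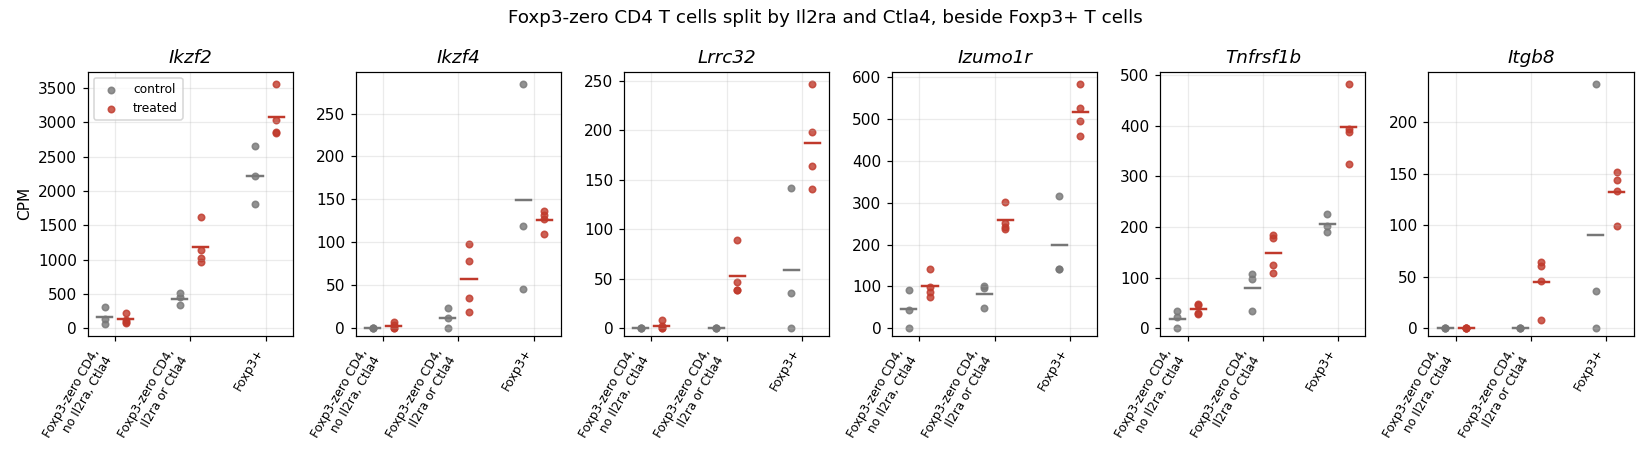
Levels of 6 members in Foxp3-zero CD4 T cells without and with a UMI of Il2ra or Ctla4, beside Foxp3+ T cells. Points are samples in CPM (linear axes that differ between genes), grey for 3 controls and red for 4 treated samples, and bars are group means. In the treated samples the middle class lies between the others for all 6 genes, with Ikzf2 at 967 to 1619 CPM.

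Treated and control samples were then compared within each cell type, the question being whether the IL-2/CD25 plasmid changed the use of these genes. In Foxp3+ cells Izumo1r was higher in every treated sample than in every control and was called by edgeR, though on 1 control. Only control 2, with 15 Foxp3+ cells, met the minimum of 10 cells, so this fit set 1 control against 4 treated samples, had no spread between controls of its own and assumed that control 2 varies like the treated samples. A call in it therefore says that control 2 stood apart from the treated samples. edgeR called 0.978% of 8692 genes, 0.518% higher and 0.46% lower, and the median over all genes was 0.16 on the log2 scale. Of the members, 1 of 6 tested was called.

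Izumo1r, whose levels are given above, was higher by 1.91 ± 0.34 (log2 ± SE, edgeR adjusted p = 0.0097). With the 2 smaller controls taken in (samples with at least 5 cells, a setting chosen after the data were seen, in which 2.58% of 7415 genes were called, 1.98% higher and 0.593% lower), it was higher by 1.72 ± 0.32 (edgeR adjusted p = 0.00023), but without control 2 in that setting the adjusted p became 0.0603. Lrrc32 was higher by 2.43 ± 0.70 without passing (edgeR adjusted p = 0.132), and it passed with all 3 controls (2.12 ± 0.52, edgeR adjusted p = 0.00993) or with no limit on other-lineage UMIs (2.64, edgeR adjusted p = 0.0284). Tnfrsf1b differed by 1.02 ± 0.35 (edgeR adjusted p = 0.218) and, with all 3 controls, by 1.11 ± 0.31 (edgeR adjusted p = 0.0322), and with no such limit by 1.17 (edgeR adjusted p = 0.033). Itgb8 differed by 1.94 ± 0.65 (edgeR adjusted p = 0.209), Ikzf2 by 0.52 ± 0.18 (edgeR adjusted p = 0.227) and Ikzf4 by 0.12 ± 0.42 (edgeR adjusted p = 0.957). In raw levels the groups overlapped in Lrrc32, Itgb8 and Ikzf4 and not in the others.

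Of the lists in the same cells, 4 of 21 activation and effector genes were called higher against control 2 and 0 lower: the costimulatory receptor Icos (3.49), Il2ra (2.17), Ctla4 (1.93) and Il10. With all 3 controls (samples of at least 5 cells) the same number was called, with Icos at 2.82, Ctla4 at 1.86 and Il2ra at 1.56. Icos measured 237, 95 and 316 CPM in controls 1 to 3 and 1148.2, 908, 1209.7 and 879 CPM in treated samples 1 to 4, a clear separation. Il10 measured 237, 0 and 0 CPM against 537, 272, 403 and 390 CPM, and control 1, with 5 UMIs, lay just under treated 2. Because Il10 and Cxcr6 had no UMI in control 2, they passed the filter on low counts through the treated samples alone, and their calls are no more than that.

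Il2ra measured 948, 226 and 271 CPM in controls 1 to 3 against 1154.9, 793, 1104.7 and 889 CPM, and control 1 lay among the treated values. The plasmid itself encodes CD25, and whether its transcripts are counted as Il2ra was not tested. Beside these values, Il2ra stood at 1.816 ± 1.853 CPM in B cells of the controls and 4.365 ± 1.459 CPM in those of the treated samples, and at 0.4504 ± 0.2061 and 2.943 ± 4.155 CPM in Krt18-high cells.

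Of 12 tissue genes, Klrg1 (3.31), Ccr2 (2.64) and Cxcr6 were called higher against control 2 and Rora (-1.82) lower. Klrg1 separated the groups, at 94.8, 59.4 and 135 CPM against 532, 615, 614 and 530 CPM. Rora did not, at 142, 558 and 361 CPM against 151, 160, 204 and 112 CPM, with control 1 inside the treated range. With all 3 controls, 5 of 11 were called higher, Areg and Gata3 in addition, and Rora lower. Areg had 0, 1 and 0 UMIs and Cxcr6 1, 0 and 0 UMIs in controls 1 to 3. Both thus passed the filter on low counts through the treated samples, and their calls are no more than that. Gata3 overlapped, with control 1 at 332 CPM above treated 4 at 324 CPM. Of the central T cell genes, Il7r (-1.26) was called lower, and its levels of 1705.7, 1305.9 and 1939.1 CPM lay above the 639, 468, 465 and 527 CPM of the treated samples.

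Dusp5 (2.27), Pim1 (1.14) and Il2rb (1.00), the shared IL-2 and IL-15 receptor chain, were the 3 of 11 IL-2 response genes called higher, and Socs2 joined them with all 3 controls. Dusp5, Pim1 and Il2rb all separated the groups. Dusp5 measured 47.4, 119 and 361 CPM against 539, 615, 715 and 381 CPM. Pim1 measured 190, 724 and 586 CPM against 1580.7, 1506.1, 1830.5 and 1288.2 CPM. No gene of the Ikaros, TGF-beta, TNF receptor 2 or Foxp3 partner lists was called against control 2. With all 3 controls, Smad7 (1.34) of the TGF-beta list, Nfkbia (1.27) and Tnfaip3 (1.25) of the TNF receptor 2 list, Foxo1 (1.57) of the Foxp3 partners and Satb1 (2.97) of the central genes were called higher.

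Markers of other cells moved with the groups. The 4 neutrophil markers summed to 676 to 1753.0 CPM in the Foxp3+ cells of the controls and to 79 to 156 CPM in those of the treated samples. The 3 tumour markers summed to 131 to 316 CPM against 6.37 to 21.2 CPM, and the 4 monocyte and macrophage markers to 0 to 237 CPM against 22.4 to 55.5 CPM. Dendritic and NK markers were at 0 in the control cells. Their part in the differences between groups was not tested.

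In Foxp3-zero CD4 T cells, Izumo1r and Ikzf2 rose. Here all 7 samples entered the fit, edgeR called 12.1% of 6108 genes (4.86% higher, 7.27% lower), and 2 of 3 tested members were called higher. Izumo1r measured 44.8, 93.5 and 40.62 CPM in control samples and 164.5, 149.2, 133 and 189.9 CPM in the treated samples, without overlap, and was higher by 1.39 ± 0.31 (log2 ± SE, edgeR adjusted p = 0.00575). Ikzf2 measured 224, 322.1 and 284.4 CPM against 437.8, 431.1, 410 and 887 CPM, also without overlap, and was higher by 0.93 ± 0.27 (edgeR adjusted p = 0.0314). Tnfrsf1b (64.7, 41.55 and 27.08 against 70.87, 79.88, 59.79 and 109.5 CPM) did not pass, at 0.57 ± 0.36 (edgeR adjusted p = 0.329). Neither call was stable. In the cells without Il2ra and Ctla4 the Ikzf2 difference turned to -0.27 (edgeR adjusted p = 0.776) and the Izumo1r call was lost (edgeR adjusted p = 0.19), and without control 1 the adjusted p became 0.218 for Ikzf2 and 0.114 for Izumo1r; Ikzf2 also missed with DESeq2 (adjusted p = 0.052) and without control 3 (edgeR adjusted p = 0.0783).

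The 3 rarer members were too low for the fit in these cells. Lrrc32 had 0 UMIs in the 86 control cells and 51 in the 635 treated ones. Pooled over the treated group, Lrrc32 came to 20.29 CPM, 2.51 times the 8.09 CPM that 3 UMIs over the control group would give. Itgb8 had 0 and 38 UMIs and came to 15.12 CPM, 1.87 times that limit. Single treated samples ran from 12.2 to 46.92 CPM of Lrrc32 and from 2.44 to 29.04 CPM of Itgb8, the latter reaching below the limit. The pooled ratios cover counting only, not the spread between samples. In the gate as a whole, Il2ra (1.64) and the tissue genes Klrg1 (4.48), Il1rl1 (3.94), Ccr4 (3.45), Gata3 (1.58) and Cxcr6 (1.26) were called higher, 5 of 9 of that list, and so were 6 of 10 central genes, such as Ccr7 (2.74) and Satb1 (2.64), with 1 lower. Of the TGF-beta list 4 of 10 were higher, the receptors Tgfbr1 (1.86) and Tgfbr2 (1.13) among them, of the TNF receptor 2 list 1 of 11, Tnfaip3 (1.54), and of the IL-2 response list Dusp5 (1.72) and Pim1 (0.87) were higher and Socs3 (-1.16) lower. Genes of both a tissue and a central T cell kind were thus higher in the treated samples of 1 gate, which mixes cells of several states. In this gate the neutrophil markers summed to 758 to 1324.0 CPM in controls against 88.6 to 192 CPM in treated samples, the tumour markers to 135 to 433 against 4.47 to 17.7 CPM and the NK markers to 0 to 99.5 against 137 to 302 CPM, and their part was not tested.

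Whether the gap between Foxp3+ and Foxp3-zero cells changed with treatment was examined in the same 5 samples, with control 2 the only control. The test was that of the interaction term. It called 4 of 9579 genes (0.0418%), Icos among them (3.12 ± 0.47, log2 ± SE, edgeR adjusted p = 0.0152). Of the 6 members tested, 0 were called, with edgeR adjusted p from 0.638 to 1, and the interaction thus did not show that the plasmid moved any member more in one kind of cell than in the other. For Lrrc32 and Itgb8, at 0 in the Foxp3-zero cells of control 2, the interaction was -4.31 ± 6.45 and -4.42 ± 6.59 (log2 ± SE). These estimates are too wide to tell a change from none. With samples of at least 5 cells, 143 genes were called (1.73%, of which 1.53% higher).

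Outside CD4 T cells, Tnfrsf1b was called higher in CD8 T cells and NK cells, where large parts of all genes were called. In CD8 T cells edgeR called 44.7% of 10969 genes, 22.2% higher and 22.4% lower. Ikzf4, Lrrc32 and Itgb8 were too low for the fit. Of the 3 tested members with UMIs in the controls, Tnfrsf1b alone was called, a share near that background. Tnfrsf1b measured 30.72, 24.45 and 26.06 CPM in control samples and 50.43, 46.58, 37.55 and 41.72 CPM in the treated samples, which did not overlap. It was higher by 0.62 ± 0.21 (log2 ± SE, edgeR adjusted p = 0.0232), and DESeq2 gave an adjusted p of 0.0504. The call was also lost without control 1, 2 or 3 or treated 1 or 2 (edgeR adjusted p from 0.0508 to 0.0794). Foxp3 had no UMI in 276 control CD8 T cells and 74 in the treated ones. Pooled over the treated group it came to 5.023 CPM, 3.3 times what 3 UMIs over the control group would give. That ratio covers counting only, not the spread between samples. Foxp3 passed the filter through the treated samples only, so its test is left out, and B cells of the treated samples held 1.008 CPM.

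Ikzf2 in CD8 T cells measured 88.64, 425.3 and 85.27 CPM in control samples and 270.8, 299.3, 283.2 and 340 CPM in the treated samples. Control 2 was the highest of all 7. The difference was 0.70 ± 0.35 (edgeR adjusted p = 0.122) with it and 1.71 (edgeR adjusted p = 4.16e-07) without it, and it also passed with no filter on low counts (0.80, edgeR adjusted p = 1.14e-07) and with no limit on other-lineage UMIs (1.2, edgeR adjusted p = 0.0306). Izumo1r in CD8 T cells did not pass (0.28 ± 0.30, edgeR adjusted p = 0.479), but with no such limit it was called higher by 1.3 (edgeR adjusted p = 0.00466). Markers of other cells moved with the groups here too. In activated CD8 T cells the neutrophil markers summed to 649 to 1227.0 CPM in controls against 94.6 to 166 CPM, and the tumour markers to 43.4 to 310 against 0 to 16.7 CPM. Their part in these differences was not tested.

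In NK cells, ILC1-like cells included, edgeR called 33.9% of 12736 genes, 16.8% higher and 17.1% lower. Tnfrsf1b measured 45.82, 45.39 and 47.13 CPM in control samples and 73.41, 74.09, 79.48 and 64.31 CPM in the treated samples. All treated values were above all control values, and the gene was higher by 0.57 ± 0.15 (log2 ± SE, edgeR adjusted p = 0.0079), a call lost without control 2 (edgeR adjusted p = 0.069). Ikzf2 measured 62.7, 66.8 and 42.42 CPM against 39.89, 51.26, 58.21 and 34.48 CPM, with overlap, and did not pass (-0.54 ± 0.22, edgeR adjusted p = 0.0777). Of the 2 tested members with UMIs in control NK cells 1 was called. The neutrophil markers in NK cells summed to 914 to 1299.0 CPM in controls against 102 to 170 CPM, and the tumour markers to 95.6 to 354 against 1.37 to 9.31 CPM, and their part was not tested. All 3 other Ikaros family genes, Ikzf1, Ikzf3 and Ikzf5, were called higher in both CD8 T and NK cells.

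The remaining types gave no call with the settings used throughout. In NKT-like T cells (3.17% of 8968 genes called, 2.2% higher and 0.97% lower), Ikzf2, Izumo1r and Tnfrsf1b differed by 0.70 ± 0.39, 0.45 ± 0.45 and 0.03 ± 0.47, with edgeR adjusted p of 0.379, 0.69 and 0.985; with no limit on other-lineage UMIs, Ikzf2 (1.55, edgeR adjusted p = 0.0233) and Izumo1r (1.41, edgeR adjusted p = 0.0165) passed. In gamma delta-like T cells (4.62% of 8226 called, 2.63% higher and 1.99% lower), Tnfrsf1b was at 0 CPM in 2 of the 3 controls, which held 33 cells in all, and differed by 2.43 ± 0.77 without passing (edgeR adjusted p = 0.0666). It passed with no such limit (2.72, edgeR adjusted p = 0.0264), with no filter on low counts (edgeR adjusted p = 0.0226) and with the replicate number as a block. Control 1 was the only control with UMIs of the gene. Without control 1 the gene entered the fit through the treated samples alone, and its call there is no more than that. Ikzf2 (-0.53 ± 0.26) and Izumo1r (-0.73 ± 0.66) did not pass there, with edgeR adjusted p of 0.262 and 0.625. In plasmacytoid dendritic-like cells (11.5% of 7519 called, 4.75% higher and 6.78% lower), Ikzf2 (-0.19 ± 0.23) and Tnfrsf1b (0.32 ± 0.43) gave edgeR adjusted p of 0.656 and 0.708. These p-values do not show that the levels were equal.

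**Figure D5:**
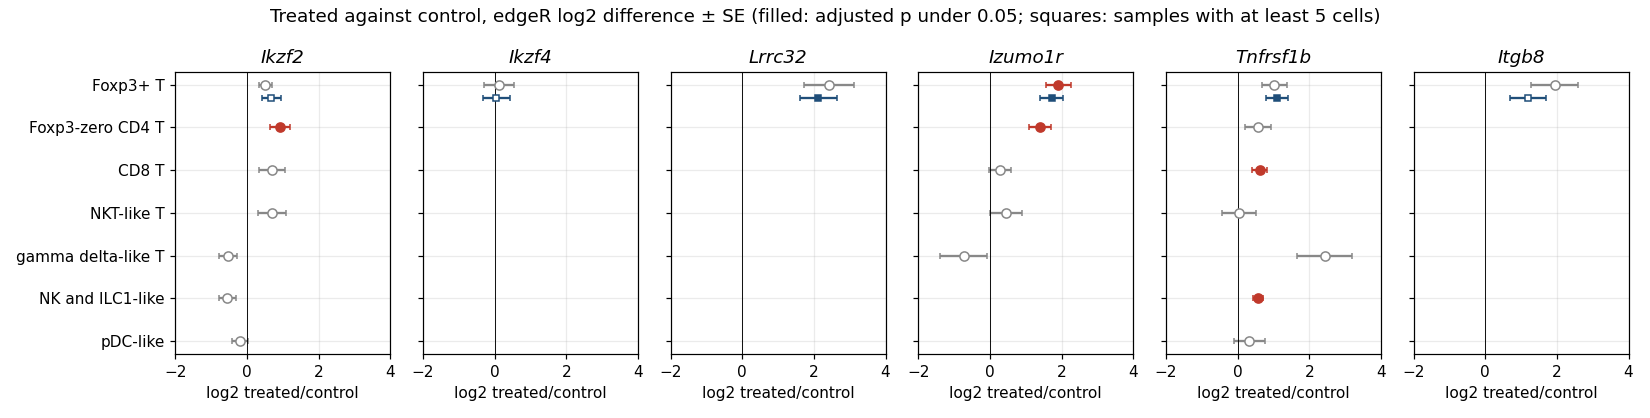
Difference between treated and control samples for 6 members in 7 cell types, as edgeR's log2 difference with its SE. Filled symbols have an adjusted p under 0.05; circles are samples with at least 10 cells and blue squares, in Foxp3+ cells, samples with at least 5, and an empty place means that the gene was too low for the fit. Izumo1r is filled in Foxp3+ cells (1.91) and Foxp3-zero CD4 T cells (1.39), Tnfrsf1b in CD8 T and NK cells (0.62 and 0.57).

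To see which genes are distributed like the members, levels were compared over 11 cell types, with CD4 T cells kept whole, in the treated samples. The values are descriptions over types that share libraries, among 8357 genes with at least 20 CPM in 1 type. Itgb8 ran close to Foxp3 (r = 0.954 in the treated and 0.864 in the control samples), as did the giant muscle protein gene Neb (0.977 and 0.529) and Tnfrsf4 (0.954 and 0.606). Ikzf2 was followed most closely by the unannotated transcripts Gm28112 (0.986 and 0.754) and Gm29112 (0.97 and 0.817), then by Srrt (0.848 and -0.115). Ikzf4 and Lrrc32 were alike (0.957 and 0.791), and Tnfrsf4 (0.96) and Gm47050 (0.96) were nearest to Ikzf4, with 0.854 and 0.936 in the controls, and Cd81 (0.967) and the metallothionein Mt1 (0.956) to Lrrc32, with 0.392 and 0.405. Izumo1r was nearest to Ephx1 (0.952 and 0.684), A630023P12Rik (0.942 and 0.742) and Aebp2 (0.94 and 0.904), and Tnfrsf1b to Tnfrsf9 (0.978 and 0.673), Gbp3 (0.974 and -0.336) and F730043M19Rik (0.969 and 0.0503). Itgb8 was nearest to Ncmap (0.991 and 0.547), Neb (0.983 and 0.603) and Igsf9b (0.976 and 0.906). Several of these likenesses were thus weak or absent in the controls, whose types hold few cells. Gm28112 and Gm29112 were counted apart from Ikzf2, and whether they overlap it was not examined.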

How the data were processed

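Liver tumour tissue of 7 mouse samples was measured by 10x 3′ single-cell RNA sequencing (v3.1 chemistry, per the labels' protocols). The deposited values are raw UMI counts per gene and cell barcode, made by the authors with Cell Ranger 7.0.0 after bcl2fastq 5.0.1, per the submitters' processing notes and the file headers; the genome build and annotation are not named there. All samples carry the same batch label.

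Cells with at least 500 UMIs, 200 genes and under 20% mitochondrial counts were kept, and doublets scored against simulated pairs were removed at 0.8% per 1000 barcodes (5.81% to 8.51% of cells). Cells were assigned to types by marker UMIs, without clusters, and cells with more than 1 UMI of other-lineage markers were left out of the T cell types. Counts were summed per sample and type and tested with edgeR 4.0.16 (quasi-likelihood, TMM scaling, filterByExpr, Benjamini-Hochberg adjustment, threshold 0.05) in R 4.3.3, for samples with at least 10 cells; limma 3.58.1 is loaded with it, and DESeq2 1.42.0 was an alternative. The scripts were tested on simulated data first. Shares were compared by exact permutation with scipy 1.17.1 in Python 3.11.15; intervals are exact (Clopper-Pearson or Poisson, 95%) and cover counting error only. Alternatives were other scaling, no filter on low counts, stricter cells, doublets kept, other definitions of Foxp3+ and Foxp3-zero cells, the replicate number as a block and each sample left out. Taking samples with at least 5 cells, and dropping the limit on other-lineage UMIs, were added after the data were seen.

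The 7 members are named throughout. Of 8 gene lists, up to 6 genes per comparison are named, those past the threshold with the largest fold and at least 20 CPM; some genes outside that rule are named because a result turns on them, and these were chosen after their values were seen. Likeness between genes is Pearson's r of log2(mean CPM + 1), and the 3 most alike genes are named for each member. The members and lists were chosen with earlier results of these data known.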

Additional observations from a re-analysis of the deposited data

Results flagged for a closer look

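In all, 64 sets of 4 treated samples were checked: members with at least 20 UMIs in a cell type, and both Foxp3+ shares. All CD8 T cells, and NK with ILC1-like cells, also entered as merged types beside their parts, so some sets overlap. Of the 64 sets, 4 held 1 sample far from the other 3 by Dixon's ratio, past its 95% critical value. Chance flags about 1 in 20 such sets where they are independent. In Foxp3-zero CD4 T cells, treated 4 held 887 CPM of Ikzf2, against 410 to 437.8 CPM in the other 3, and 46.92 CPM of Lrrc32, against 12.2 to 16.45 CPM. The same sample had the largest share of Foxp3-zero CD4 T cells with Il2ra or Ctla4, at 46.3%. In NK cells, treated 4 held 1.973 CPM of Foxp3, a level near that of B cells. In plasmacytoid dendritic-like cells, treated 3 held 15.9 CPM of Tnfrsf1b, below the other 3. The causes were not tested.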

How the results depend on the processing

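Of the recomputed values of single members, 477 kept direction and side of the threshold, 24 came to pass it, 13 no longer passed and 20 changed sign, and the cause of a change was not tested unless named. The 85 genes called between treated and control Foxp3+ cells became 228 with no filter on low counts, 171 with no limit on other-lineage UMIs, 191 with samples of at least 5 cells and 56 to 140 with a treated sample left out (42 to 175 with at least 5 cells: 42 without control 2, 155 without control 1, 136 without treated 1 and 175 without treated 4). Foxp3-zero CD4 T cells gave 741, and 1384 with no lineage limit, 398 in cells without Il2ra or Ctla4 and 271 to 789 with a sample left out. CD8 T cells gave 4898 (7913 with no limit), NKT-like 284 (531 with no filter, 1833 with no limit, 109 to 279 with a sample left out) and plasmacytoid dendritic-like cells 867 (2394 with no limit, 447 to 865). Leaving out a sample gave 171 to 404 in gamma delta-like cells (main 380) and 2189 to 4261 in NK cells (main 4315). Foxp3+ against Foxp3-zero cells gave 2062, 1332 with DESeq2 and 1362 to 2286 with a sample left out. The interaction gave 4, 24 with DESeq2, 42 with no filter, 2 with doublets kept, 46 with no limit, 10 from 2 Foxp3 UMIs, 16 with a Cd4 UMI, 143 with at least 5 cells, 7 without Il2ra or Ctla4 cells and 0 to 35 with a sample left out. The difference in the share of T cells ran from -0.239 to 3.53 percentage points, and that of CD4 T cells from 16 to 30, with a sample left out.

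Changes of sign were seen in values that had not passed, except Ikzf2 in Foxp3-zero CD4 T cells (-0.268 in cells without Il2ra or Ctla4). Ikzf4 in Foxp3+ cells gave -0.178, -0.0617, -0.0429 and -0.0998 with a sample left out of the set with at least 5 cells (range -0.178 to 0.381). Tnfrsf1b in NKT-like cells gave -0.166 with median-of-ratios scaling and with DESeq2, and -0.121 to 0.225 with a sample left out. Ikzf2 in plasmacytoid dendritic-like cells gave 0.212 with no lineage limit and -0.49 to 0.196 with a sample left out, Ikzf2 in gamma delta-like cells -0.781 to 0.174, and Izumo1r in CD8 T cells -0.242 to 0.715. In the interaction, Ikzf2 gave 0.0124 with a Cd4 UMI, 1.72 without Il2ra or Ctla4 cells and -0.317 to 0.159 with a sample left out; Tnfrsf1b gave -6.22 without those cells and -0.122 to 0.269, and Itgb8 1.98 without them.

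The replicate numbers did not pair the samples: same-numbered samples deviated from their group means with correlations of -0.019 to 0.0597 in 4 cell types. With the replicate block, 726 genes were called in Foxp3-zero CD4 T cells, 4384 in CD8 T, 229 in NKT-like, 321 in gamma delta-like, 4057 in NK and 794 in plasmacytoid dendritic-like cells, and Ikzf2 in CD8 T cells (0.82, edgeR adjusted p = 0.0175) and Tnfrsf1b in gamma delta-like cells (2.65, edgeR adjusted p = 0.0489) passed; the block could not be fitted for Foxp3+ cells, which had 1 control. The paired differences in shares were 0.836 points (exact permutation p = 0.75) and 16.6 points (exact permutation p = 0.5), where 0.25 is the smallest p that 3 pairs allow.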
